A study of Mus musculus with 30 samples.

Results

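The collagen genes of the mouse dorsal hippocampus were described across 5 conditions of a study of object location memory (OLM). Members were chosen by name alone: every row of the expression table whose symbol is Col, a number, the letter a and a number was taken, with 2 such symbols left out by rule, which gave 42 of the 24883 rows. They comprised 11 fibrillar collagens, 6 basement membrane collagens of the type IV family and 25 other collagens. No collagen symbol filled more than 1 row. Each condition held 6 adult male C57BL/6J mice, wild type in the labels and housed singly, with 1 RNA-seq library per mouse and 30 libraries in all. VEH-HC mice stayed in the home cage and were only handled. VEH-T10 mice were trained for 10 min, a threshold session, and VEH-T3 mice for 3 min, a subthreshold session. These 3 conditions received the transfection reagent in vivo-jetPEI alone. Y397F-T10 mice received a plasmid for the phospho-null form of CREST (gene Ss18l1, a subunit of the neuronal BAF chromatin remodelling complex) and were trained for 10 min. Y397D-T3 mice received the phospho-mimetic form and were trained for 3 min. The plasmids carried HA-tagged mouse Crest under the miniCaMK2 promoter, which is used to drive expression in forebrain excitatory neurons, and per the labels were infused on both sides 3 days before training. Tissue was taken 1 h after training. No untrained group received a plasmid, so training and plasmid can be separated only by comparing plasmid with vehicle at the same training time.

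Collagens are secreted or membrane-bound proteins whose chains wind around each other into a rigid helix. Fibrillar collagens assemble into the tensile fibrils of connective tissue, which in the brain are found mainly in the meninges and around large vessels. Type IV collagens form the sheet-like network of basement membranes, which in the brain lines the vessels and the pial surface. The remaining collagens decorate fibrils, form beaded filaments or span the cell membrane, and several of them are made by neurons. Chains of 1 collagen molecule are often encoded by separate genes, so the genes are described below by molecule.

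Sequences are given for the chains of type XI collagen, which were called together in trained mice, and for the pair of type IV genes that share a start. Col11a1 (chr3:114030540-114220718, plus strand) and Col11a2 (chr17:34039437-34066685, plus strand) lie on different chromosomes, so their promoters are shown to compare what stands upstream of each. Both runs are the 250 bases before the RefSeq start on GRCm38.p6, 5′ to 3′, at chr3:114030290-114030539 and chr17:34038888-34039137. Capitals mark the CCAAT box (CCAAT, or ATTGG on the other strand) and the GC box (GGGCGG, or CCGCCC on the other strand).
Col11a1: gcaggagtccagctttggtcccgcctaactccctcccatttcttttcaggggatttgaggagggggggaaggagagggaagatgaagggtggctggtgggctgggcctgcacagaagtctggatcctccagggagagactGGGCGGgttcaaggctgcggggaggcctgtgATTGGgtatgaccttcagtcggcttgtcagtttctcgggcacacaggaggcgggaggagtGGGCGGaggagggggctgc
Col11a2: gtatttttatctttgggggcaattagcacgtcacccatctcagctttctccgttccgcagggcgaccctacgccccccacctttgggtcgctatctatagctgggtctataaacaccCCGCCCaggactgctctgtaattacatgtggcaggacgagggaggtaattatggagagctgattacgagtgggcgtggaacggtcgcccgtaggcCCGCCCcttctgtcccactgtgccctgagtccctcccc
The Col11a1 window held 1 CCAAT box, 79 bases before the start, and GC boxes 110 and 19 bases before it, at 62.4% G and C. That of Col11a2 held no CCAAT box and GC boxes 133 and 38 bases before the start, at 57.6% G and C. The RefSeq start of Col11a2 lies 299 bases upstream of the gene start in GENCODE, whereas those of Col11a1 are the same. Neither window held the letters of an AP-1 site (TGANTCA) or of a cAMP response element (TGACGTCA) on either strand. Of 32851 RefSeq promoters of the same length, 33.8% held a CCAAT box, 32.7% a GC box, 6.75% an AP-1 site and 1.55% a cAMP response element, so the boxes found are common. Promoters were matched for 33 of the 42 collagens.

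Several type IV collagen genes lie head to head, which is why their shared ends are of interest when their levels are compared. In GENCODE Col4a1 (minus strand) and Col4a2 (plus strand) overlap at their starts by 22 bases, at chr8:11312805-11312826 on GRCm38.p6, shown here on the plus strand, all of it shared.
Col4a1 and Col4a2: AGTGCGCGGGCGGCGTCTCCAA
Whether the counting used the strand is not given in the sources used here, so reads inside these 22 bases may be assigned to either gene. Col4a3 and Col4a4 start 71 bases apart, and Col4a5 and Col4a6 start 1308 bases apart.

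The values are FPKM, fragment counts scaled both to the length of the transcript and to the size of the library, as the authors deposited them. Their read depth is not known from the table, so no counting interval is given. FPKM is per length, which allows levels to be compared between genes. Marker genes of CA1 pyramidal neurons were present in every library, with summed FPKM from 171 to 269, and those of dentate granule cells summed to 66.6 to 188, so the labelled tissue carried hippocampal markers, although not of CA1 alone. Markers of choroid plexus epithelium, the secretory tissue of the ventricles, ranged from 10.3 to 12789 summed FPKM. A set of 3 libraries (Y397F-T10 replicate 1, VEH-T3 replicate 1 and Y397D-T3 replicate 3) stood apart from the other 27 on the first principal component. The Ss18l1 level ranged from 10.4 to 14.7 FPKM, with condition medians from 12.4 to 13.7 FPKM, and plasmid transcripts cannot be told from those of the mouse's own gene. In bulk tissue, fewer cells of a type and less RNA per cell cannot be told apart.

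The collagen with the highest mean level over the 30 mice was Col9a3, a chain of the fibril-associated type IX collagen, at 16.1 FPKM. It made up 15.4% of the summed collagen FPKM and had the widest range, from 3.80 to 57.0 FPKM. The main basement membrane chains came next, Col4a2 at 13.9 FPKM (9.19 to 18.3) and Col4a1 at 12.8 FPKM (8.96 to 19.8), with 13.2% and 12.2% of the sum. Their ranges overlapped, and the ratio of Col4a1 to Col4a2 was 0.928 ± 0.112 (SD, n = 30), so the order of these neighbours was within the spread between mice. Col9a3 was first by the mean alone: its median over 30 mice, 10.4 FPKM, was below that of Col4a1, 12.0 FPKM, and that of Col4a2. By condition mean it was above both chains in VEH-HC, Y397F-T10 and VEH-T3 and below both in VEH-T10 (13.6 FPKM beside 15.7 for Col4a2 and 14.7 for Col4a1) and in Y397D-T3 (8.86 FPKM beside 15.3 and 13.2). Col25a1, a transmembrane collagen whose shed part is a component of amyloid plaques, followed at 8.86 FPKM (6.98 to 13.2). Col11a2, a chain of the fibrillar type XI collagen, had a mean of 7.32 FPKM (4.46 to 10.7) and was the highest of the fibrillar class, above both chains of type I collagen, Col1a2 at 5.06 FPKM and Col1a1 at 4.12 FPKM. At the other end, Col10a1 averaged 0.0224 FPKM and was listed at 0 in 10 libraries. A mean of at least 1 FPKM, the level needed for a test, was reached by 22 collagens: 8 of 11 fibrillar, 3 of 6 basement membrane and 11 of 25 other collagens. The remaining 20 lay between 0.0224 and 0.943 FPKM.

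**Figure D1:**
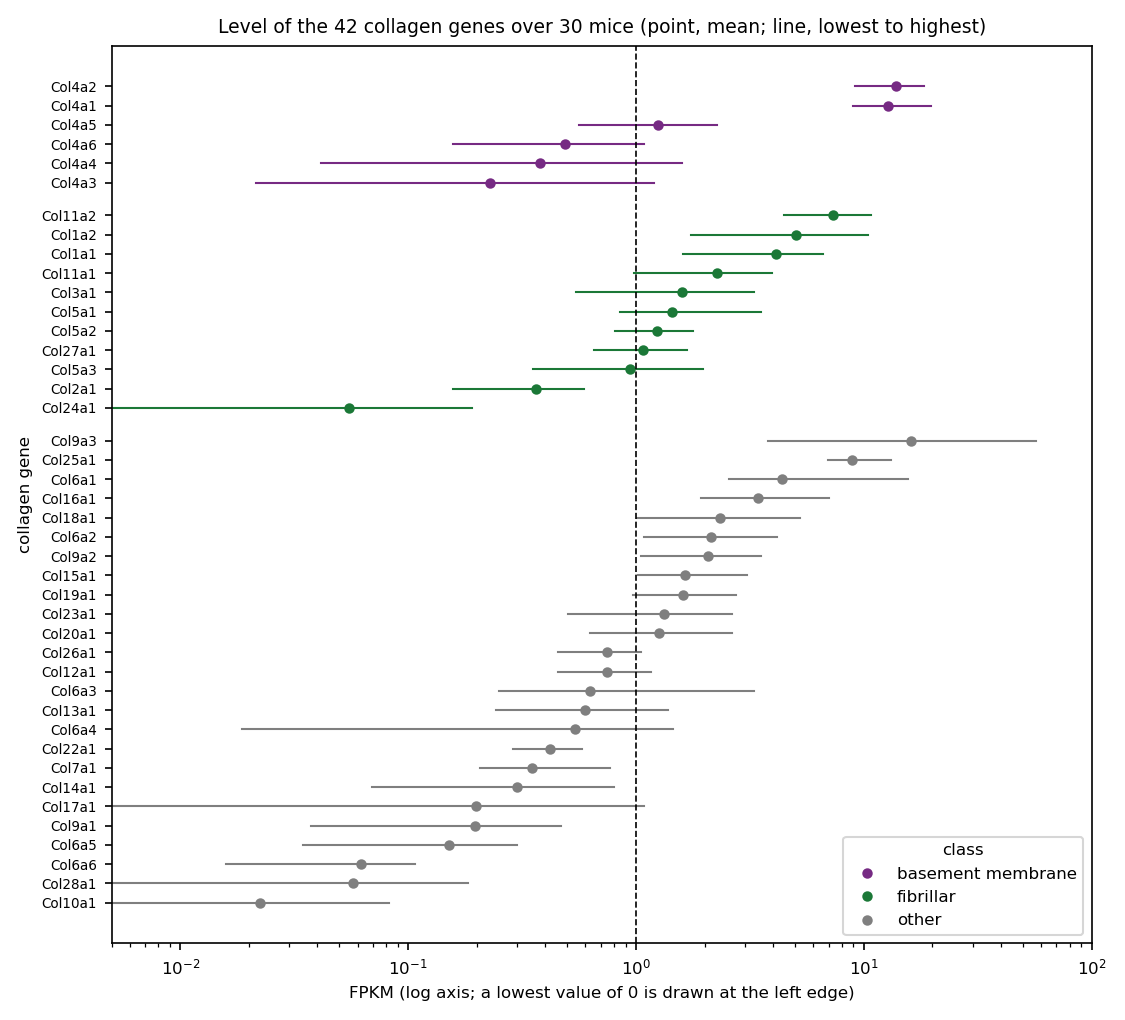
Level of each of the 42 collagens over the 30 mice, as FPKM on a log axis. Points are means, lines run from the lowest to the highest mouse, colours give the class and the dashed line marks 1 FPKM. Col9a3 has the highest mean, 16.1 FPKM, and a line reaching from 3.80 to 57.0, whereas that of Col4a2 spans only 9.19 to 18.3.

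The summed FPKM of all 42 collagens was similar in size in the 5 conditions, from a mean of 95.3 ± 11.5 (SD, n = 6) in Y397D-T3 to 110 ± 28.3 (SD, n = 6) in Y397F-T10, with 106 ± 15.2 (SD, n = 6) in VEH-HC. By class, the basement membrane sum was 24.7 ± 3.44 in VEH-HC and from 28.4 ± 5.29 (VEH-T3) to 32.6 ± 5.75 (VEH-T10) in the trained conditions. The fibrillar sum was 24.0 ± 3.13 in VEH-HC and from 24.4 ± 4.53 to 26.7 ± 5.01 in the trained conditions. That of the other collagens was 56.8 ± 10.4 in VEH-HC and from 40.7 ± 5.90 (Y397D-T3) to 55.3 ± 24.5 (Y397F-T10) after training. All of these are SDs over 6 mice, and no test was run on the sums.

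Each trained condition, taken 1 h after its session, was compared with the home cage. In the paper's task mice were also habituated to the arena on days before training, whereas home cage mice were only handled. These comparisons therefore cannot separate the session from the earlier arena visits. In Y397D-T3, 5 of the 22 tested collagens passed an adjusted p of 0.05 in limma, where 7.07% of all 13184 tested rows did. Col11a1, Col11a2, Col4a2 and Col19a1 were higher (3.91% of all rows were called higher) and Col23a1 was lower (3.16% of all rows). In VEH-T3, 1 of 22 was called, Col11a1, higher, where 5.17% of all rows were called. In VEH-T10 none of the 22 was called (0.819% of all rows), although 6 had an unadjusted p under 0.05 (14.9% of all rows). In Y397F-T10 none was called (1.13% of all rows), and 3 had an unadjusted p under 0.05 (16.9% of all rows). For the mean of the 4 trained conditions, 4 of 22 were called where 9.66% of all rows were: Col11a1, Col11a2 and Col4a2 were higher (3.86% of all rows) and Col23a1 was lower (5.79% of all rows). These 5 comparisons share the 6 VEH-HC mice, and the last one pools the other 4. Over the list the median differences were small. The median log2 fold change of the 22 was 0.00 in VEH-T10, -0.06 in VEH-T3, -0.04 in Y397F-T10, -0.12 in Y397D-T3 and -0.06 in the trained mean, beside -0.03, -0.04, -0.04, -0.03 and -0.04 over all tested rows.

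By class, the genes called in Y397D-T3, where 7.07% of all rows were called, were 2 of 8 tested fibrillar collagens, 1 of 3 basement membrane collagens and 2 of 11 others. In VEH-T10 and Y397F-T10 every class had 0. With the 3 libraries that stood apart left out, a choice made after seeing the data, the count over the 22 became 4 in VEH-T10, 5 in VEH-T3, 2 in Y397F-T10, 6 in Y397D-T3 and 8 in the trained mean. Calls rose over all rows as well in that fit, to 3.35%, 11.9%, 6.11%, 10.1% and 14.7% of rows in the same order. The split of calls over all rows moved with the scaling: in Y397D-T3 it was 515 higher and 417 lower as deposited, 692 and 248 after centring each library on its median, and 394 and 264 as TPM. In the trained mean it was 509 higher and 764 lower as deposited, 603 and 307 centred, and 470 and 262 as TPM. No called collagen changed direction under either scaling.

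**Figure D2:**
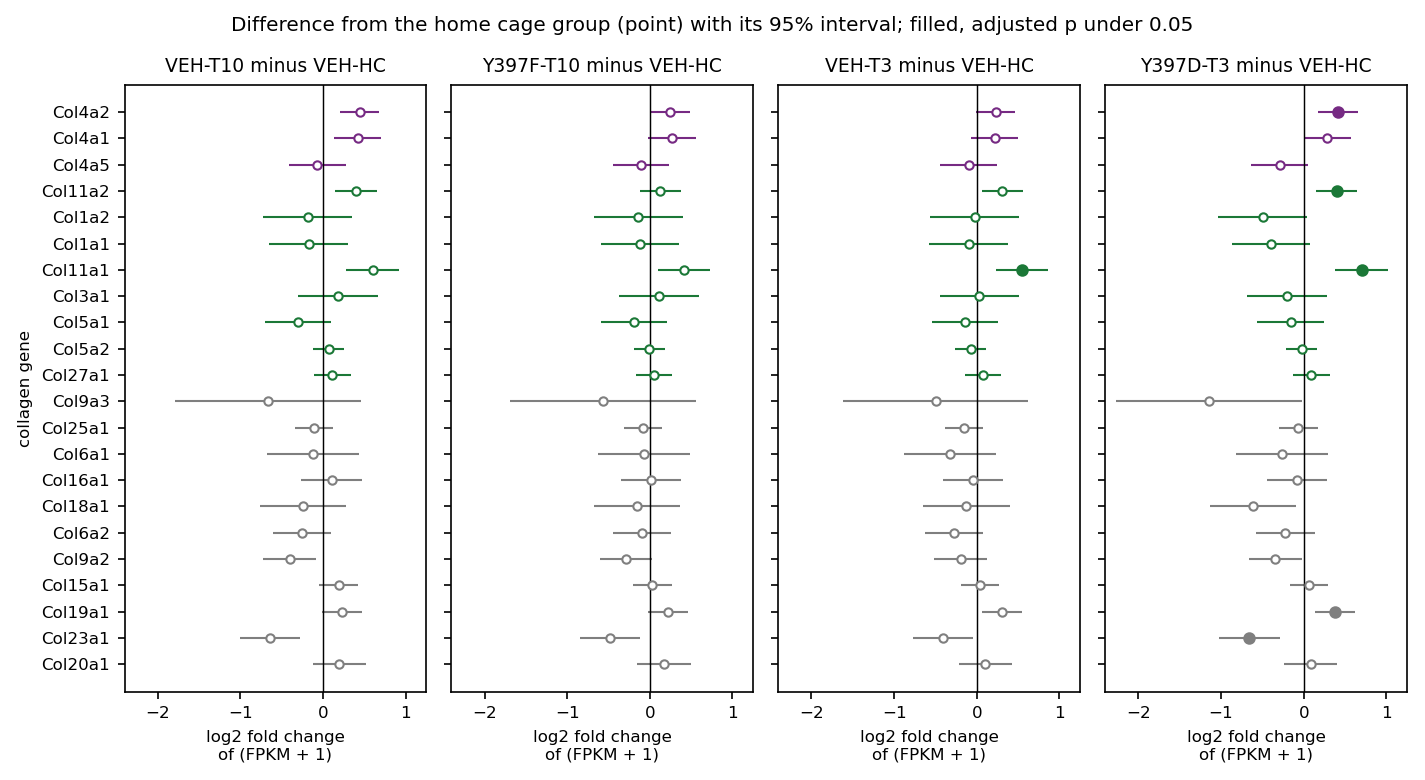
Log2 fold change on the log2(FPKM + 1) scale of the 22 tested collagens in each of the 4 trained conditions against VEH-HC, with 95% intervals from limma, in purple for basement membrane, green for fibrillar and grey for other collagens. Filled points passed an adjusted p of 0.05: 5 in Y397D-T3, 1 in VEH-T3 and 0 in VEH-T10 and Y397F-T10.

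Col11a1 encodes a chain of type XI collagen, a fibrillar collagen that sits inside thicker fibrils and is best known from cartilage. In VEH-HC it ranged from 0.984 to 1.60 FPKM with a median of 1.42. The medians were higher in the trained conditions, 2.70 FPKM in VEH-T10 (1.57 to 3.41), 2.09 in Y397F-T10 (1.43 to 2.74), 2.34 in VEH-T3 (1.55 to 3.30) and 2.96 in Y397D-T3 (1.42 to 3.94). In each trained condition 5 of 6 mice lay above every home cage mouse, 20 of 24 in all, and the sixth lay inside the home cage range. The mean FPKM was 2.14 times that of VEH-HC in Y397D-T3 and 1.85 times in VEH-T3. On the log2(FPKM + 1) scale, which understates the change of low genes, Col11a1 rose by 0.70 in Y397D-T3 (SE 0.15, limma adjusted p = 0.00726), by 0.55 in VEH-T3 (SE 0.15, adjusted p = 0.0376) and by 0.57 in the trained mean (SE 0.12, adjusted p = 0.00551). The differences in VEH-T10, 0.60 (SE 0.15, adjusted p = 0.054), and Y397F-T10, 0.42 (SE 0.15, adjusted p = 0.165), did not pass. The VEH-T3 call was lost in 9 of the 12 fits that left out 1 mouse of either condition, whereas the Y397D-T3 call was kept in all 12.

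Col11a2 encodes the partner chain of the same molecule and was called beside Col11a1. It ranged from 4.46 to 7.37 FPKM in VEH-HC (median 6.13), 5.66 to 10.7 in VEH-T10 (8.08), 5.69 to 7.27 in Y397F-T10 (6.60), 5.76 to 9.08 in VEH-T3 (7.88) and 6.41 to 9.54 in Y397D-T3 (8.16). In VEH-T10 and in Y397D-T3 5 of 6 mice lay above every home cage mouse, in VEH-T3 3 of 6 did and in Y397F-T10 none of 6 did. The mean was 1.38 times that of VEH-HC in VEH-T10 and 1.36 times in Y397D-T3. Col11a2 rose by 0.40 on the log2 scale in Y397D-T3 (SE 0.12, limma adjusted p = 0.0431) and by 0.31 in the trained mean (SE 0.10, adjusted p = 0.0393). The differences in VEH-T10 (0.40, SE 0.12, adjusted p = 0.101), VEH-T3 (0.31, adjusted p = 0.128) and Y397F-T10 (0.13, adjusted p = 0.641) did not pass. Without 1 mouse at a time the first call was lost in 8 of 12 fits and the second in 9 of 30.

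The 2 chains moved together from mouse to mouse, with Pearson's r of 0.86 and Spearman's rho of 0.85 over the 30 mice (permutation p = 1e-05 for each, the smallest that 100000 permutations can give, adjusted p = 1e-05 and 1.4e-05 over 7 gene pairs). The correlation was 0.80 without the 2 mice farthest from the median of Col11a1, 0.80 with condition means removed and 0.86 without the 3 libraries that stood apart. Their ratio was not constant. Col11a2 was 4.51 ± 0.25 times Col11a1 in VEH-HC (SD, n = 6), with a range from 4.19 to 4.82, and the trained conditions had means from 3.05 to 3.29.

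Col11a1 moved with several marker lists, most closely with that named for the deep cortex. The summed FPKM of 6 deep cortex markers (Ctgf, Nxph4, Cplx3, Foxp2, Tle4 and Rprm) was 36.4 to 46.8 in VEH-HC, 24.3 to 34.6 in VEH-T10, 26.7 to 43.8 in Y397F-T10, 24.5 to 51.3 in VEH-T3 and 28.0 to 40.4 in Y397D-T3. By median the sum was mostly Rprm (16.0 FPKM) and Tle4 (13.1), which were at least 9.06 and 11.1 FPKM in every library. The medians of Ctgf, Cplx3, Nxph4 and Foxp2 were 2.40, 0.883, 0.632 and 0.167 FPKM. Whether the sum measures deep cortex alone was not tested. No library had any of the 6 at 0, and of the 4 that were tested 1 was called lower in VEH-T10, 1 in Y397D-T3 and 3 in the trained mean. Col11a1 was lower where this sum was higher, with r of -0.74 and rho of -0.78 over 30 mice (permutation p = 2e-05 for each, adjusted p = 0.000318 and 0.00052 over 286 relations of 22 collagens with 13 marker lists). The value was -0.74 without the 2 farthest mice, -0.64 with condition means removed and -0.75 without the 3 libraries that stood apart. For Col11a2 r was -0.62 and rho -0.66 (permutation p = 0.00028 and 0.00011, adjusted p = 0.00232 and 0.00163). Col11a1 was also higher where the markers of CA3 pyramidal neurons were higher (r of 0.62, rho of 0.63, permutation p = 0.00011 and 0.00023, adjusted p = 0.00121 and 0.00263, r of 0.55 without the 2 farthest mice and 0.60 without the 3 libraries). It was lower where those of meningeal fibroblasts were higher (r of -0.44, rho of -0.45, permutation p = 0.0147 and 0.013, adjusted p = 0.0448 and 0.0472, r of -0.46 without the 2 farthest and -0.53 without the 3). With thalamus markers r was -0.43 and rho -0.36 (permutation p = 0.0173 and 0.0481, adjusted p = 0.0475 and 0.115). The part of tissue composition in the Col11a1 and Col11a2 results was not tested.

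**Figure D3:**
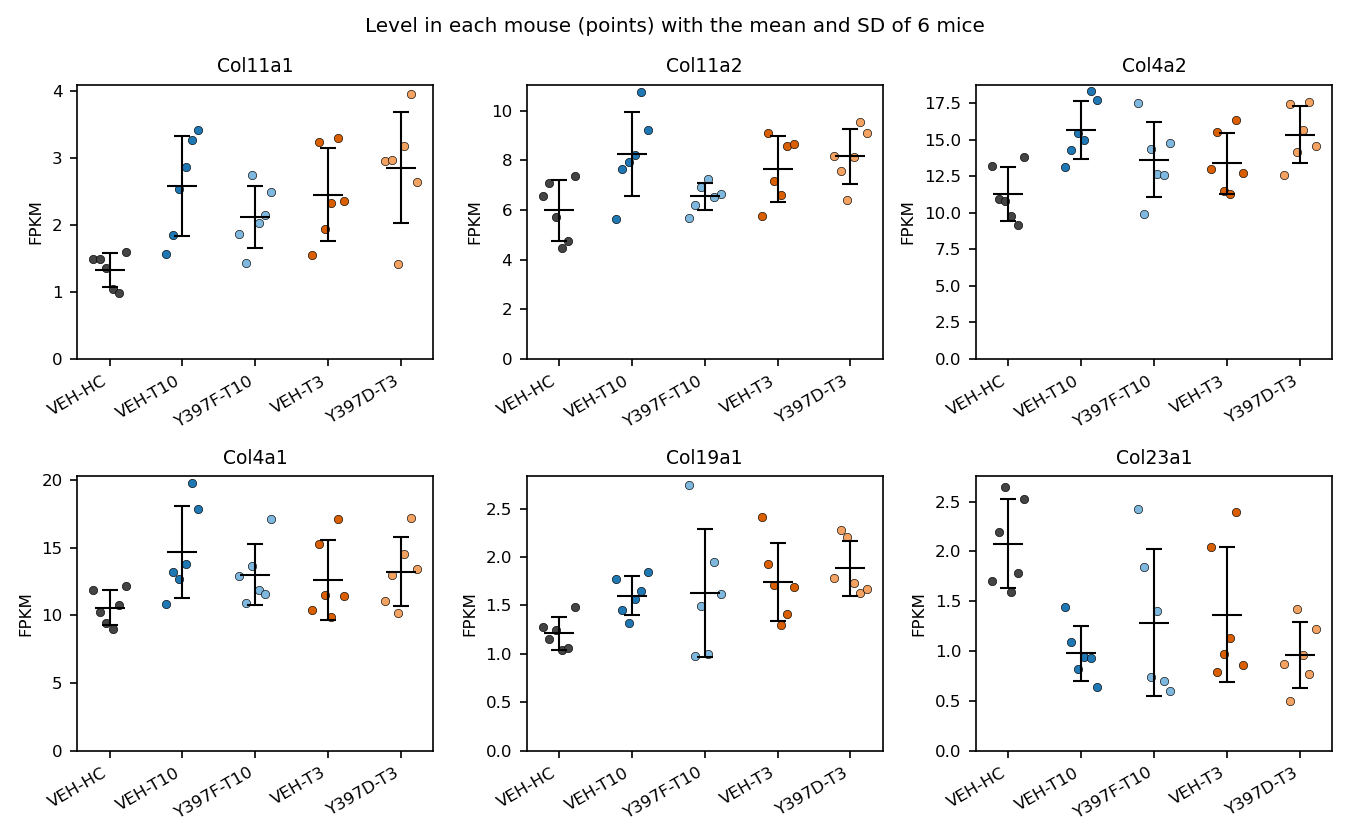
FPKM of the 5 called collagens and of Col4a1 in each mouse, by condition, with the mean and SD of 6 mice. For Col11a1 20 of 24 trained mice lie above the highest VEH-HC mouse at 1.60 FPKM, and for Col23a1 20 of 24 lie below the lowest at 1.59 FPKM.

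The other fibrillar collagens named by level were the 2 chains of type I collagen, the main fibril protein of connective tissue, made in the brain by fibroblasts of the meninges and vessel walls. Col1a1 ranged from 3.90 to 5.27 FPKM in VEH-HC (median 4.52), 2.55 to 5.51 in VEH-T10 (4.39), 1.61 to 6.65 in Y397F-T10 (5.14), 2.06 to 6.57 in VEH-T3 (4.31) and 2.26 to 5.17 in Y397D-T3 (3.01). The ranges overlapped in every comparison. In Y397D-T3 the log2 difference from VEH-HC was -0.40 with a 95% interval from -0.87 to 0.08 (limma adjusted p = 0.294). Col1a2 had medians from 3.41 FPKM in Y397D-T3 to 5.66 in VEH-HC and a log2 difference in Y397D-T3 of -0.50 with an interval from -1.04 to 0.04 (adjusted p = 0.239). These intervals include both no difference and a decrease of a size like that of the called genes. Across mice the 2 chains followed each other, with r of 0.89 and rho of 0.82 (permutation p = 1e-05 for each, adjusted p = 1e-05 and 1.4e-05), and Col1a2 was 1.23 ± 0.21 times Col1a1 (SD, n = 30). Col1a2 also followed the summed FPKM of 10 meningeal fibroblast markers, with r of 0.71 and rho of 0.72 (permutation p = 2e-05 and 3e-05, adjusted p = 0.000318 and 0.00066). That sum ranged from 60.0 to 151 in VEH-HC and from 24.1 to 80.8 in Y397D-T3, none of the 10 markers was at 0 in any library, and 1 of the 9 tested was called lower in Y397D-T3.

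Among the basement membrane collagens, Col4a2 was called and its partner Col4a1 was not. The chains encoded by these genes combine in the basement membranes of nearly all vessels. Col4a2 ranged from 9.19 to 13.8 FPKM in VEH-HC (median 10.9), 13.1 to 18.3 in VEH-T10 (15.2), 9.89 to 17.5 in Y397F-T10 (13.5), 11.3 to 16.3 in VEH-T3 (12.9) and 12.6 to 17.6 in Y397D-T3 (15.1). In VEH-T10 and in Y397D-T3 5 of 6 mice lay above every home cage mouse. Col4a2 rose by 0.41 on the log2 scale in Y397D-T3 (SE 0.12, limma adjusted p = 0.028), 1.36 times in mean FPKM, and by 0.33 in the trained mean (SE 0.09, adjusted p = 0.0216). The VEH-T10 difference of 0.44 (SE 0.12, adjusted p = 0.058) lay just outside the threshold, and those of VEH-T3 (0.23, adjusted p = 0.249) and Y397F-T10 (0.25, adjusted p = 0.275) were smaller. The Y397D-T3 call was lost in 6 of 12 fits that left out 1 mouse.

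Col4a1 had a median of 10.5 FPKM in VEH-HC (range 8.96 to 12.2). The trained medians were 13.5 in VEH-T10 (10.8 to 19.8), 12.4 in Y397F-T10 (10.9 to 17.1), 11.4 in VEH-T3 (9.88 to 17.1) and 13.2 in Y397D-T3 (10.2 to 17.2). Every trained condition overlapped the home cage. The log2 difference was 0.29 in Y397D-T3 with an interval from 0.00 to 0.57 (limma adjusted p = 0.198) and 0.30 in the trained mean with an interval from 0.07 to 0.52 (adjusted p = 0.0843), which includes the 0.33 of Col4a2. So a difference between these partner genes is not shown by the calls. Across mice they followed each other with r of 0.81 and rho of 0.87 (permutation p = 1e-05 for each, adjusted p = 1e-05 and 1.4e-05), and r was 0.87 without the 3 libraries that stood apart.

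Several marker lists moved with Col4a2 or Col4a1. The summed FPKM of 6 endothelial markers was 64.2 to 79.0 in VEH-HC and 62.2 to 77.6 in Y397D-T3, and 1 of the 6 was called lower in Y397D-T3 and none higher. Across mice Col4a2 had r of 0.26 and rho of 0.28 with this sum (permutation p = 0.164 and 0.129, adjusted p = 0.258 and 0.236, r of 0.42 without the 3 libraries that stood apart), whereas Col4a1 had r of 0.61 and rho of 0.55 (permutation p = 0.0003 and 0.00158, adjusted p = 0.00232 and 0.0105). Whether these 2 correlations differ was not tested. The relation of Col4a1 was not particular to endothelial markers. Without the 3 libraries its r was 0.64 and its rho 0.55 with endothelial markers, and 0.66 and 0.62 with astrocyte markers. For Col4a2 the values with astrocyte markers were 0.38 and 0.44. Both genes were lower where deep cortex markers were higher, with r of -0.45 and rho of -0.49 for Col4a2 (permutation p = 0.0117 and 0.00671, adjusted p = 0.0376 and 0.0291) and r of -0.63 and rho of -0.63 for Col4a1 (permutation p = 0.00026 and 0.00035, adjusted p = 0.00225 and 0.00323). The values of r were -0.44 and -0.60 without the 2 farthest mice, -0.19 and -0.49 with condition means removed, and -0.63 and -0.64 without the 3 libraries. With meningeal fibroblast markers Col4a2 had r of -0.59 and rho of -0.51 (permutation p = 0.0007 and 0.0051, adjusted p = 0.00464 and 0.0239, r of -0.50 without the 2 farthest and -0.60 without the 3). The part of tissue composition in the Col4a2 result was not tested.

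Col4a5, a chain of specialised basement membranes such as that of the kidney filter, was at a lower level, with medians from 0.897 FPKM in Y397D-T3 (0.694 to 1.26) to 1.45 in VEH-HC (0.891 to 1.77). The ranges overlapped and the log2 difference of -0.29 in Y397D-T3 had an interval from -0.63 to 0.05 (limma adjusted p = 0.279). Col4a3, Col4a4 and Col4a6 had means of 0.229, 0.378 and 0.487 FPKM and were not tested in the main comparison. The head-to-head genes Col4a3 and Col4a4 still followed each other across mice, with r of 0.97 and rho of 0.89 (permutation p = 1e-05 for each, adjusted p = 1e-05 and 1.4e-05).

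Col23a1 encodes a transmembrane collagen whose outer part can be shed from the cell surface, and it was the only tested collagen called lower in any of the 8 comparisons. It ranged from 1.59 to 2.65 FPKM in VEH-HC with a median of 1.99. The trained medians were 0.933 FPKM in VEH-T10 (0.634 to 1.44), 1.07 in Y397F-T10 (0.593 to 2.42), 1.05 in VEH-T3 (0.785 to 2.39) and 0.914 in Y397D-T3 (0.501 to 1.42). All mice of VEH-T10 and Y397D-T3 lay below every home cage mouse, and 20 of 24 trained mice did so in all. In Y397D-T3 the mean was 0.461 times that of VEH-HC. Col23a1 fell by 0.66 on the log2 scale in Y397D-T3 (SE 0.18, limma adjusted p = 0.0243) and by 0.55 in the trained mean (SE 0.14, adjusted p = 0.0151). The differences in VEH-T10 (-0.64, SE 0.18, adjusted p = 0.0764), Y397F-T10 (-0.48, adjusted p = 0.165) and VEH-T3 (-0.41, adjusted p = 0.166) did not pass. Without 1 mouse at a time the Y397D-T3 call was lost in 4 of 12 fits and the trained call in none of 30.

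Several marker lists moved with Col23a1, among them that of the thalamus, which lies below the hippocampus. The summed FPKM of 6 such markers (Slc17a6, Tcf7l2, Prkcd, Calb2, Lef1 and Shox2) was 38.3 to 69.6 in VEH-HC, 30.7 to 43.9 in VEH-T10, 26.9 to 41.0 in Y397F-T10, 26.9 to 70.3 in VEH-T3 and 24.9 to 38.1 in Y397D-T3. The defining marker Shox2 was at 0 in 13 libraries and reached at most 0.367 FPKM. Of the 5 markers tested, 1 was called lower in each of VEH-T10, VEH-T3 and Y397F-T10, 3 in Y397D-T3 and 2 in the trained mean. Col23a1 rose and fell with this sum, with r of 0.72 and rho of 0.62 over 30 mice (permutation p = 2e-05 and 0.00046, adjusted p = 0.000318 and 0.00376). The value of r was 0.63 without the 2 farthest mice, 0.55 with condition means removed and 0.81 without the 3 libraries that stood apart. Col23a1 also followed deep cortex markers (r of 0.63, rho of 0.70, permutation p = 0.00024 and 7e-05, adjusted p = 0.00214 and 0.00125, r of 0.57 without the 2 farthest mice and 0.57 without the 3 libraries). It followed meningeal fibroblast markers (r of 0.58, rho of 0.69, permutation p = 0.00092 and 8e-05, adjusted p = 0.0056 and 0.00135, r of 0.65 without the 2 farthest and 0.71 without the 3). The part of other tissue in the Col23a1 result was not tested.

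**Figure D4:**
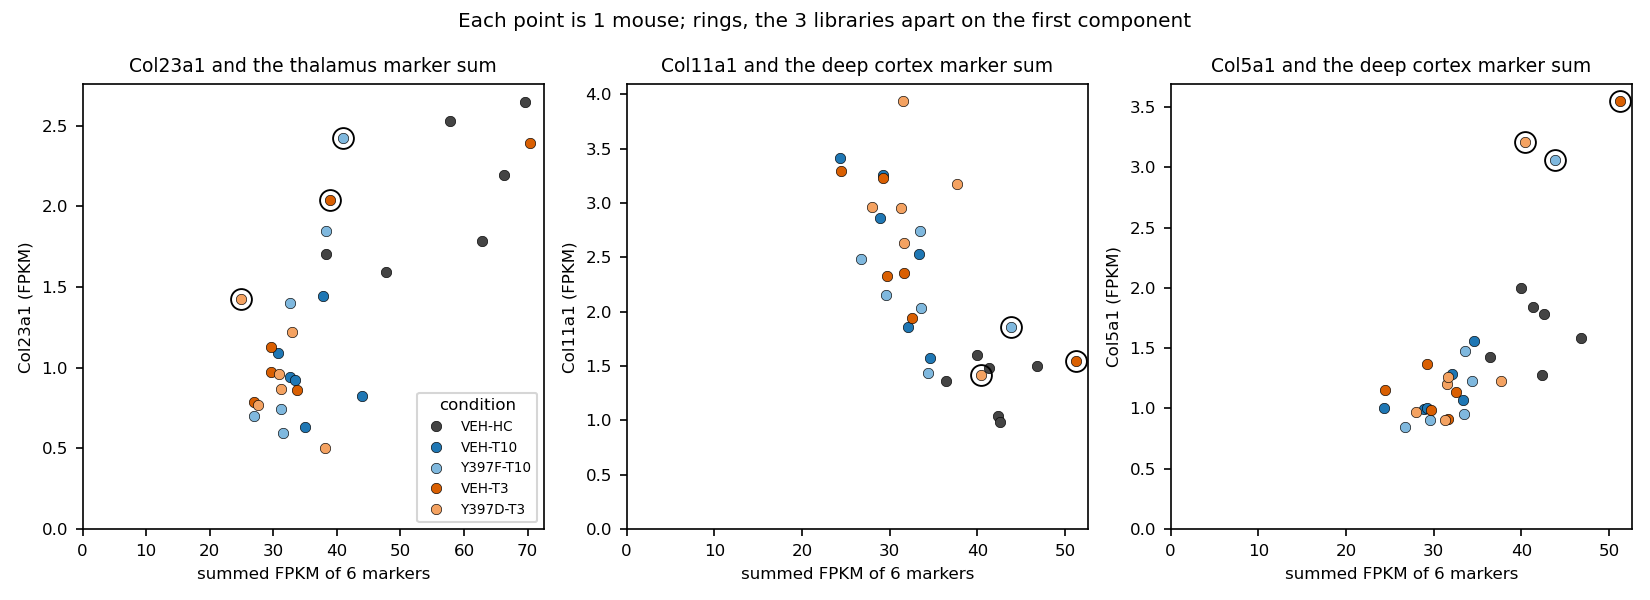
Each mouse's Col23a1 FPKM against its summed thalamus markers, and its Col11a1 and Col5a1 FPKM against its summed deep cortex markers, coloured by condition, with rings around the 3 libraries that stood apart. Over the 30 mice r was 0.72 for Col23a1, -0.74 for Col11a1 and 0.77 for Col5a1.

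Col25a1, the other transmembrane collagen named, differed little between conditions. It ranged from 6.98 to 10.6 FPKM in VEH-HC (median 9.89), 7.65 to 10.8 in VEH-T10 (8.22), 7.15 to 13.2 in Y397F-T10 (8.05), 7.05 to 9.97 in VEH-T3 (8.38) and 8.002 to 10.8 in Y397D-T3 (8.78). All ranges overlapped. The trained mean differed by -0.10 on the log2 scale with an interval from -0.28 to 0.08 (limma adjusted p = 0.508).

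Col19a1 encodes a fibril-associated collagen that in the hippocampus is made by interneurons and has been tied to the formation of inhibitory synapses. It ranged from 1.04 to 1.49 FPKM in VEH-HC (median 1.20), 1.32 to 1.85 in VEH-T10 (1.61), 0.973 to 2.75 in Y397F-T10 (1.55), 1.30 to 2.41 in VEH-T3 (1.70) and 1.62 to 2.28 in Y397D-T3 (1.76). All 6 Y397D-T3 mice lay above every home cage mouse, whereas the other trained conditions overlapped the home cage. Col19a1 rose by 0.38 on the log2 scale in Y397D-T3 (SE 0.12, limma adjusted p = 0.0456), with a mean 1.56 times that of VEH-HC. This call was lost in 11 of the 12 fits that left out 1 mouse, after median centring (adjusted p = 0.059) and as TPM (adjusted p = 0.0741). The trained mean differed by 0.28 (adjusted p = 0.0501). The summed FPKM of 6 interneuron markers was 576 to 846 in VEH-HC and 600 to 1046 in Y397D-T3, and its r with Col19a1 was 0.41 and its rho 0.36 over 30 mice (permutation p = 0.0252 and 0.0517, adjusted p = 0.0582 and 0.119), with r of 0.25 without the 3 libraries that stood apart. Other lists moved with Col19a1 more closely. Col19a1 was lower where ependymal markers were higher (r of -0.67, rho of -0.66, permutation p = 2e-05 and 0.00012, adjusted p = 0.000318 and 0.00163, r of -0.65 without the 2 farthest mice and -0.49 without the 3), and where meningeal fibroblast markers were higher (r of -0.63, rho of -0.62, permutation p = 0.00019 and 0.00031, adjusted p = 0.00187 and 0.00305, r of -0.57 without the 2 farthest and -0.67 without the 3). The part of tissue composition in the Col19a1 result was not tested.

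Col9a3 had the widest range of the collagens in FPKM and followed both the choroid plexus and the meningeal fibroblast markers. Over the 27 mice without the 3 libraries that stood apart, r was 0.91 and rho 0.95 with choroid plexus markers. With meningeal fibroblast markers r was 0.95 and rho 0.94 over the same mice. These 2 relations are not separate. The 3 libraries with the most choroid plexus marker also had the highest meningeal sums, 257, 238 and 179 FPKM. Igf2 had the widest range of the meningeal markers, from 8.21 to 167 FPKM. Col9a3 ranged from 10.5 to 30.9 FPKM in VEH-HC (median 20.2), 5.82 to 27.1 in VEH-T10 (9.11), 4.14 to 57.0 in Y397F-T10 (7.95), 3.80 to 50.5 in VEH-T3 (12.8) and 4.68 to 19.1 in Y397D-T3 (7.72). The highest mice of Y397F-T10 and VEH-T3 lay far above every home cage mouse, and the lowest of all 4 trained conditions lay below every home cage mouse. The log2 difference of -1.15 in Y397D-T3 (SE 0.55, 95% interval -2.27 to -0.02, limma adjusted p = 0.191) did not pass.

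The summed FPKM of 6 choroid plexus markers (Ttr, Kl, Folr1, Clic6, Kcne2 and Otx2) fell into a lower and a higher set of 15 libraries each, with none between 364 and 918. All 6 VEH-HC libraries were in the higher set, with 2 of VEH-T10, 2 of Y397F-T10, 4 of VEH-T3 and 1 of Y397D-T3. Sums in VEH-HC were 918 to 5590, and Ttr, the transthyretin gene, ranged from 5.89 to 12451 FPKM over all libraries. Kcne2 was at 0 in 1 library. None of the 6 markers was called by limma in any of the 8 comparisons, with at most 5 at an unadjusted p under 0.05, in Y397D-T3. Col9a3 was 3.80 to 10.3 FPKM in the lower set (median 7.41) and 10.5 to 57.0 in the higher set (median 23.2), with no overlap. Within the higher set it followed the marker sum with r of 0.98 and rho of 0.96 (permutation p = 1e-05 for each, adjusted p = 0.00016 over 16 relations of 8 collagens within the sets, r of 0.98 without the 2 farthest). Within the lower set r was 0.58 and rho 0.71 (permutation p = 0.0252 and 0.00463, adjusted p = 0.0928 and 0.0185, r of 0.63 without the 2 farthest).

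Col18a1, a basement membrane proteoglycan whose end fragment is endostatin, was taken up after its values were seen because it followed Col9a3 (r of 0.93, rho of 0.92 over 30 mice, permutation p = 1e-05 for each, adjusted p = 1e-05 and 1.4e-05). Within the higher set its r with the choroid plexus markers was 0.86 and its rho 0.83 (permutation p = 9e-05 and 0.00026, adjusted p = 0.00072 and 0.00208). In the lower set r was -0.06 and rho 0.08 (permutation p = 0.823 and 0.773, adjusted p = 0.878 and 0.836). Over the 27 mice without the 3 libraries that stood apart, its r was 0.78 and its rho 0.81 with choroid plexus markers. With meningeal fibroblast markers its r was 0.89 and its rho 0.87 over the same mice. Within the sets Col11a1, Col4a2, Col19a1 and Col23a1 had r from -0.35 to 0.50 with the choroid plexus markers, and the lowest adjusted p was 0.149 for r. Without the 2 farthest mice of each set r ran from -0.69 (Col19a1, lower set) to 0.44 (Col11a1, lower set). The medians of the lower and higher sets were 2.53 and 1.60 FPKM for Col11a1, and 14.6 and 12.6 for Col4a2. They were 1.69 and 1.30 for Col19a1, and 0.862 and 1.59 for Col23a1. Without the 3 libraries apart on the first component, r over the other 27 mice was -0.45, -0.56, -0.53 and 0.67 in that order. The 3 libraries with the most Col9a3 were also the 3 with the most Col18a1 and the 3 with the most choroid plexus marker (Y397F-T10 replicates 2 and 4 and VEH-T3 replicate 4). With those 3 left out, a choice made after seeing the data, Col9a3 fell by 1.47 on the log2 scale in Y397F-T10 (SE 0.43, limma adjusted p = 0.042), Col18a1 fell by 0.61 in Y397D-T3 (adjusted p = 0.0285), and in the trained mean Col9a3 fell by 1.04 (adjusted p = 0.0242), Col18a1 fell by 0.43 (adjusted p = 0.0396) and Col9a2, another type IX chain, fell by 0.36 (adjusted p = 0.0363). All 3 libraries left out are of trained mice and held the highest values of Col9a3 and Col18a1. Leaving them out lowers the trained side or narrows the spread of these genes by selection. No conclusion is therefore drawn from these falls. The count over the 22 became 9 in the trained mean, 6 in Y397D-T3, 2 in VEH-T3 and Y397F-T10 and 1 in VEH-T10. Over all rows the same fit called 15.6% in the trained mean, 11% in Y397D-T3, 4.81% in VEH-T3, 5.93% in Y397F-T10 and 1.27% in VEH-T10. Col19a1 was then called in each comparison with VEH-HC but that of VEH-T10, with log2 differences from 0.34 to 0.40. The part of choroid plexus or meningeal tissue in these levels was not tested.

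**Figure D5:**
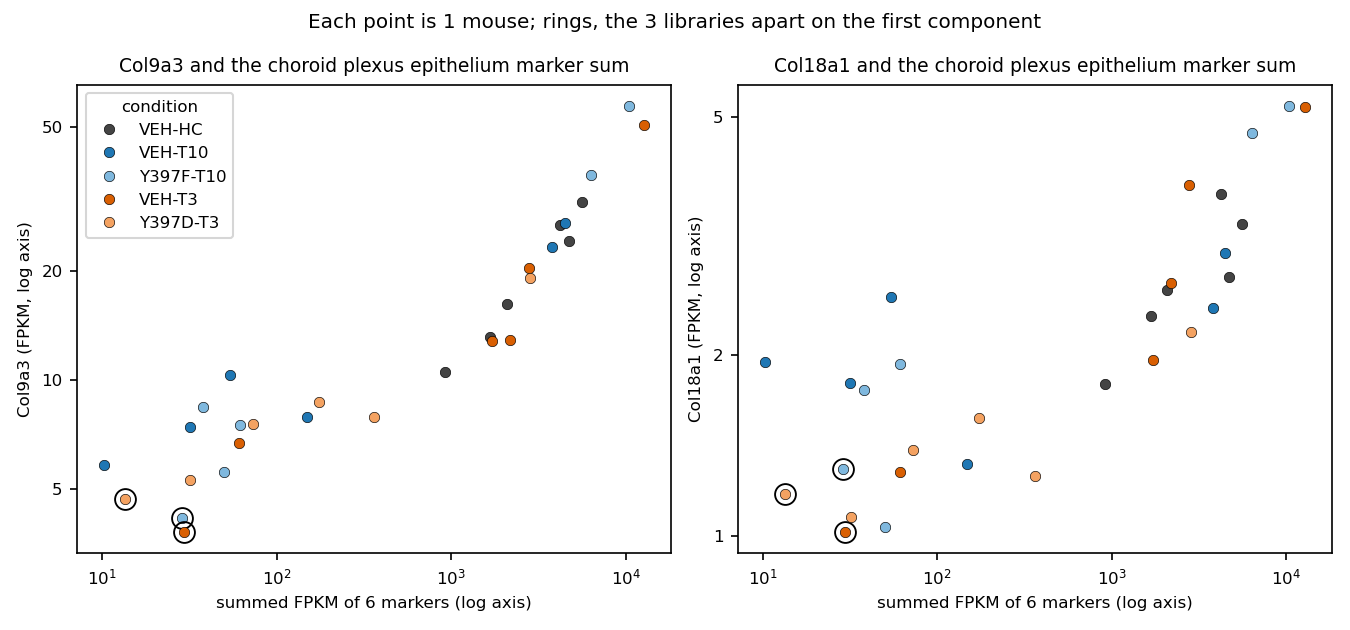
FPKM of Col9a3 and Col18a1 in each mouse against the summed FPKM of 6 choroid plexus markers, both on log axes, coloured by condition, with rings around the 3 libraries that stood apart on the first component. No mouse lies between 364 and 918 on the marker axis, and Col9a3 stays at 10.3 FPKM or below to the left of that gap and at 10.5 or above to the right.

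Col6a1, a chain of the beaded-filament type VI collagen, showed the mark of single libraries. It ranged from 3.66 to 6.22 FPKM in VEH-HC (median 4.26), 3.05 to 6.83 in VEH-T10 (3.79), 2.57 to 15.7 in Y397F-T10 (3.51), 2.94 to 7.17 in VEH-T3 (2.99) and 2.64 to 7.13 in Y397D-T3 (3.31). The 3 libraries that stood apart held the highest value of their conditions, 7.13 to 15.7 FPKM, above the 2.57 to 6.83 of the other 27. Col5a1, a fibrillar chain chosen after its values were seen, was the only other tested collagen with all 3 above the rest, at 3.06 to 3.55 FPKM against 0.848 to 2.00. No comparison called either gene with all 30 libraries. Without those 3 Col6a1 fell by 0.50 on the log2 scale in VEH-T3 (SE 0.14, limma adjusted p = 0.0192), and Col5a1 fell by 0.33 in VEH-T3 (adjusted p = 0.0198), fell by 0.35 in Y397F-T10 (adjusted p = 0.0214) and fell by 0.32 in Y397D-T3 (adjusted p = 0.0236). All 3 are of trained mice and held the highest values of both genes. Leaving them out lowers the trained side by selection, so no conclusion is drawn from these falls. Col6a1 and Col5a1 followed each other with r of 0.81 and rho of 0.68 (permutation p = 1e-05 and 0.0001, adjusted p = 1e-05 and 0.000117), and r was 0.64 without the 3. Col5a1 was higher where deep cortex markers were higher, the opposite of Col11a1, with r of 0.77 and rho of 0.78 (permutation p = 1e-05 for each, adjusted p = 0.000286), and r was 0.72 without the 3.

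The calls held without those 3 libraries, a choice made after seeing the data. Without them Col11a1 differed by 0.83 in Y397D-T3 (limma adjusted p = 0.000598) and by 0.63 in VEH-T3 (adjusted p = 0.00382). Col4a2 in Y397D-T3 was at 0.43 (adjusted p = 0.0197), Col11a2 at 0.46 (adjusted p = 0.0142), Col19a1 at 0.35 (adjusted p = 0.0208) and Col23a1 at -0.72 (adjusted p = 0.0058). In VEH-T10, where no collagen was called with all libraries, Col11a1 (0.60, adjusted p = 0.0111), Col4a2 (0.44, adjusted p = 0.0272), Col11a2 (0.40, adjusted p = 0.0479) and Col23a1 (-0.64, adjusted p = 0.0219) were called. In the trained mean Col4a1 was called beside Col4a2 (0.33, adjusted p = 0.0484).

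The 20 collagens below a mean of 1 FPKM were tested in a fit with no filter on level. None passed in any of the 8 comparisons, with 0 to 3 of the 20 at an unadjusted p under 0.05 in each, where 3.75% to 21.4% of the 18287 rows of that fit were, and the lowest adjusted p was 0.0674, for Col26a1 in the trained mean. At these levels a difference between conditions may be too small to see on the log2(FPKM + 1) scale.

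The comparisons of plasmid with vehicle at the same training time ask what differed with the plasmids. Vehicle mice received no DNA and no group received wild-type CREST. These comparisons therefore cannot separate the mutation from transfection or from added CREST. The paper states that added expression and mutation cannot be told apart, and that phosphorylation of this site could not be detected. Y397F-T10 against VEH-T10 called none of the 22 collagens and 0% of all tested rows, with 1 collagen and 3.78% of rows at an unadjusted p under 0.05. That collagen was Col11a2, at a median of 6.60 FPKM in Y397F-T10 and 8.08 in VEH-T10, a log2 difference of -0.27 with a 95% interval from -0.52 to -0.02 (limma unadjusted p = 0.0324, adjusted p = 1.00). All 6 Y397F-T10 mice were below the VEH-T10 median, but the ranges overlapped. Y397D-T3 against VEH-T3 called none of the 22 (0.00758% of all rows), with no collagen and 7.87% of rows at an unadjusted p under 0.05. The genes called in Y397D-T3 against the home cage had intervals that span 0 here, from -0.17 to 0.47 for Col11a1, -0.05 to 0.42 for Col4a2, -0.16 to 0.34 for Col11a2, -0.16 to 0.32 for Col19a1 and -0.61 to 0.12 for Col23a1. VEH-T10 against VEH-T3, which compares the 2 training times, called none of the 22 (0.0455% of all rows), with no collagen and 8.15% of rows at an unadjusted p under 0.05. A larger number of called collagens in Y397D-T3 than in VEH-T3 is therefore not a difference between those conditions that these tests show.

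Genes that act on collagens were read from lists of partners. Of 24 tested biosynthesis enzymes, P4ha1 alone was called, 1 of 24 where 5.17% of all rows were called in VEH-T3 and 9.66% in the trained mean, a share no higher than over all rows. It encodes the catalytic subunit of the prolyl hydroxylase that stabilises the collagen helix, and it rose by 0.33 on the log2 scale in VEH-T3 (SE 0.09, limma adjusted p = 0.0294) and by 0.27 in the trained mean (adjusted p = 0.0136). It was 10.8 to 13.3 FPKM in VEH-HC and 11.4 to 17.9 in VEH-T3, where 5 of 6 mice lay above the home cage median. Pcolce, an enhancer of procollagen cleavage, ranged from 1.91 to 40.0 FPKM, highest in the 3 libraries with the most choroid plexus marker, and was not called. Fkbp10, a folding helper of collagen, ranged from 2.48 to 6.07 FPKM and was not called either.

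Of 13 tested genes of collagen turnover, 2 were called in Y397D-T3, where 7.07% of all rows were, and the median log2 difference of the 13 was -0.17 beside -0.03 over all rows. Timp2, an inhibitor of matrix metalloproteinases, fell by 0.81 on the log2 scale (SE 0.21, limma adjusted p = 0.0196), with 76.5 to 107 FPKM in VEH-HC and 43.5 to 77.7 in Y397D-T3, and by 0.65 in the trained mean (adjusted p = 0.0151). The highest Y397D-T3 value, 77.7 FPKM, was that of the library that stood apart, and it was the only one of that condition inside the home cage range. Mmp17, a membrane-anchored metalloproteinase, rose by 0.20 (SE 0.05, adjusted p = 0.0227), with 68.7 to 82.7 FPKM in VEH-HC and 86.1 to 92.9 in Y397D-T3, which did not overlap. Mmp15, another membrane-type metalloproteinase, was not called.

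None of the 7 tested collagen receptors was called in any of the 8 comparisons, with at most 1 at an unadjusted p under 0.05. Ddr1, a receptor kinase activated by collagen, ranged from 22.2 to 61.9 FPKM over the 30 mice, and its log2 difference in Y397D-T3 was -0.34 (limma adjusted p = 0.26). Adgrg1, an adhesion receptor that binds collagen, and Itgb1, the shared beta chain of collagen-binding integrins, differed by -0.11 (adjusted p = 0.351) and -0.21 (adjusted p = 0.357).

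Of 11 tested partners of basement membrane collagens, Agrn was called, 1 of 11 where 7.07% of all rows were called in Y397D-T3 and 9.66% in the trained mean. It encodes agrin, a heparan sulphate proteoglycan of basement membranes and synapses. It was 22.4 to 29.2 FPKM in VEH-HC and 30.4 to 35.1 in Y397D-T3, so the ranges did not overlap. Agrn rose by 0.35 on the log2 scale in Y397D-T3 (SE 0.07, limma adjusted p = 0.0026) and by 0.24 in the trained mean (adjusted p = 0.00686). Lamb2, a laminin chain, and Sparc, a collagen-binding matrix protein, were not called.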

How the data were processed

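Total RNA of 30 dorsal hippocampus samples, 1 per mouse and with an integrity number of at least 7.0, was sequenced by the authors as paired 150-base reads on NovaSeq and HiSeq instruments, which the sources used here do not assign to libraries. Per the submitters' processing notes, reads were aligned with TopHat2 2.1.1 to mm10 (the GRCm38 assembly) and summarised with Cufflinks 2.2.1. The deposited values are FPKM per gene. Of 24883 rows, 817 shared 280 symbols, none of them a collagen. Counts and read depth were not analysed here, so the precision of each value rests on the spread between mice.

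Values were tested as log2(FPKM + 1) with limma 3.58.1 in R 4.3.3, with 1 coefficient per condition over all 30 libraries, variance moderation with a trend, and Benjamini-Hochberg adjustment over the 13184 rows with a mean of at least 1 FPKM (threshold 0.05). The study's Cyber-T analysis also fits all conditions at once. In all, 8 comparisons were made. Correlations used log2(FPKM + 1), with marker sums as log2(sum + 1), and two-sided permutation tests of 100000 draws. The fit was checked on simulated data. Members, partner lists, marker lists and tests were chosen with earlier results of these data known. Values are given for each collagen called in any comparison and the 3 of each class with the highest mean, 12 in all, and for the 3 genes of each partner list with the smallest adjusted p. Col5a1, Col18a1, Col9a2, Col26a1, Col16a1, Col3a1 and Col20a1 were named after their values were seen. Same-numbered libraries of different conditions had a median r of 0.042 over 60 pairs (from -0.50 to 0.84), so replicate numbers were not used as a block in the main fit. Replicate 1 of VEH-T10, Y397F-T10 and VEH-T3 did share a deviation. It had the highest value of its condition on the first principal component (16.2, 37.6 and 41.5). It also had the lowest astrocyte marker sum (436, 409 and 413 FPKM). In VEH-HC and Y397D-T3 replicate 1 was at neither extreme. Alternatives were the pseudocount (0.1), no filter on level, median centring, TPM, rows of a symbol summed, only the conditions compared, a replicate block, unadjusted p and leaving out each library. Promoters are from RefSeq on GRCm38.p6 and gene positions from GENCODE on the same assembly.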

Additional observations from a re-analysis of the deposited data

Results flagged for a closer look

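Of the named genes, 120 groups of 6 mice were examined for a value far from the rest by Dixon's criterion, which sets the gap to the nearest mouse against the range of the group, and 10 such values were found. Chance gives about 1 in 20 groups.

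In the 3 libraries that stood apart on the first principal component, Col6a1 was far above the other 5 mice of the condition, at 15.7 FPKM in Y397F-T10 replicate 1, 7.17 in VEH-T3 replicate 1 and 7.13 in Y397D-T3 replicate 3. Col9a3 was far above the rest at 50.5 FPKM in VEH-T3 replicate 4 and 19.1 in Y397D-T3 replicate 4, which also held the most choroid plexus marker of their conditions, 12789 and 2839 summed FPKM. VEH-T10 replicate 1 was far above the rest for Col25a1, at 10.8 FPKM, and for Timp2, at 94.5 FPKM. Single values far from their group were also seen for Mmp17 in VEH-T3 replicate 6 (90.7 FPKM, high), and for Sparc in VEH-HC replicate 3 (116 FPKM, low) and VEH-T3 replicate 5 (169 FPKM, high). The part of other tissue or of RNA quality in these values was not tested.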

How the results depend on the processing

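The 10 called results for single collagens (Col11a1, Col11a2, Col4a2, Col19a1 and Col23a1) kept their direction under every alternative. All 10 stayed past the threshold with a pseudocount of 0.1, with rows of a symbol summed, with the replicate block and without either set of 3 libraries. Without a filter on level 4 of 10 lost the threshold (Col11a1 in VEH-T3, adjusted p = 0.0506, Col11a2 in Y397D-T3, 0.0579, and in the trained mean, 0.0514, and Col19a1 in Y397D-T3, 0.0562). Median centring and TPM each lost Col19a1, and a fit of only the conditions compared lost Col11a1 in VEH-T3 (adjusted p = 0.083), where 0 of 13184 rows were called. The cause was not tested beyond the larger or smaller number of rows and samples in those fits.

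Counts of the 22 collagens called moved by over 1.5 times as follows. VEH-T10 went from 0 to 1 with a pseudocount of 0.1, 3 with only the conditions compared, 6 by unadjusted p, 4 without the 3 libraries that stood apart and 1 without the 3 highest in choroid plexus markers. VEH-T3 went from 1 to 0 without a filter and with only the conditions compared, to 4 by unadjusted p, and to 5 and 2 without those sets. Y397F-T10 went from 0 to 3 by unadjusted p and 2 without either set. Y397D-T3 went from 5 to 3 without a filter and 9 by unadjusted p. The trained mean went from 4 to 7 by unadjusted p, and 8 and 9 without those sets. Y397F-T10 against VEH-T10 went from 0 to 1 by unadjusted p. Calls over all 13184 rows moved as well. With only the conditions compared, VEH-T3 had 0 rows called, so that loss was not particular to collagens. VEH-T10 had 91 rows higher and 230 lower in that fit, beside 108 called in the main fit. With a pseudocount of 0.1 it had 43 higher and 62 lower. Without a filter, 2.8% of 18287 rows were called in VEH-T3 and 4.49% in Y397D-T3.

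Leaving out 1 library at a time gave 0 to 3 in VEH-T10 (3 without VEH-T10 replicate 1), 0 to 2 in VEH-T3, 0 to 1 in Y397F-T10 (1 without its replicate 1), 1 to 5 in Y397D-T3, 2 to 5 in the trained mean and 0 in the other 3 comparisons. Col11a1 in VEH-T3 lost its call without VEH-HC replicate 2, 3, 4 or 5 or VEH-T3 replicate 2, 3, 4, 5 or 6 (adjusted p up to 0.113). In Y397D-T3, Col11a2 lost it without VEH-HC replicate 3, 4 or 5 or Y397D-T3 replicate 1, 2, 4, 5 or 6 (up to 0.109), Col4a2 without VEH-HC replicate 2, 3, 4 or 5 or Y397D-T3 replicate 2 or 5 (up to 0.0764), Col23a1 without VEH-HC replicate 2 or 3 or Y397D-T3 replicate 2 or 5 (up to 0.0661), and Col19a1 without any mouse but VEH-HC replicate 6 (up to 0.111). In the trained mean Col4a2 lost it without VEH-HC replicate 2, 4 or 5 (up to 0.0767) and Col11a2 in 9 of 30 fits (up to 0.155). With the replicate number as a block, 5 collagens were called in Y397D-T3 and 1 in VEH-T3, as without it, 6 in the trained mean (4 without it) and 0 in the other 5 comparisons. By mean correlation with the libraries of each number in the other conditions, 8 of 30 libraries correlated best with their own number.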

Other observations

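Some collagens with no called difference varied with astrocyte markers instead, and were named after their values were seen. Col16a1, a fibril-associated collagen, ranged from 1.93 to 7.07 FPKM over the 30 mice and followed the summed FPKM of 6 astrocyte markers with r of 0.83 and rho of 0.89 (permutation p = 1e-05 for each, adjusted p = 0.000286 over 286 relations). Col3a1, the fibrillar type III chain of vessel walls and meninges, had r of 0.84 and rho of 0.81, and Col20a1, another fibril-associated collagen, r of 0.82 and rho of 0.80 (the same permutation and adjusted p). The values of r were 0.88, 0.81 and 0.81 without the 2 mice farthest from the median of the marker sum, and 0.83, 0.85 and 0.85 with condition means removed. By median the astrocyte sum was mostly Gfap (558 FPKM, from 141 to 1194), and the next highest marker was Slc1a3 (158 FPKM). Whether the relations hold apart from Gfap was not tested. Without the 3 libraries that stood apart, r was 0.90, 0.78 and 0.80 with astrocyte markers, in the same order. With endothelial markers it was 0.70, 0.59 and 0.57. None of the 6 astrocyte markers was called in any of the 8 comparisons by limma. Col25a1 was lower where dentate granule cell markers were higher, with r of -0.69 and rho of -0.66 (permutation p = 2e-05 and 0.00012, adjusted p = 0.000318 and 0.00163), and r was -0.65 without the 2 farthest mice and -0.73 with condition means removed.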
